A study of Homo sapiens with 14 samples.

Results

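The earliest time of a proanthocyanidin exposure is described here: PANC-1 cells after 3 h with proanthocyanidins (PA, polymeric plant polyphenols) at 20 micrograms per ml, against PANC-1 cells after 3 h with the vehicle DMSO. Both groups were taken by their labels, and they make up 4 of the 14 libraries of the series. Each group had 2 replicates. PANC-1 is an established human line from a pancreatic ductal carcinoma, so every value comes from 1 line, and the cells were used at passage 3 to 5. The study sampled the vehicle at 0, 3, 12 and 24 h, the PA exposure at 3, 12 and 24 h, and sequenced total RNA as read pairs of 151 nt. The DMSO libraries of 0 h serve below as a second reference, and the PA effects at 12 and 24 h as a comparison. The series text speaks of biological replication, but no label states whether the 2 libraries of a group came from separate cultures. The p-values therefore reflect only how far the replicates spread, estimated over all 14 libraries and not those of 3 h alone. That spread may be technical.

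Long proteins of the kinetochore, centrosome and Golgi are built largely of coiled coils, rod-shaped helices rich in lysine and glutamate. Their RNAs carry long coding regions with many codons for these amino acids (AAA, AAG, GAA and GAG). Centromere motors and checkpoint proteins attach chromosomes to the spindle, centrosomal proteins organise microtubules and cilia, and golgins catch transport vesicles. Among inducible genes, NF-kB is a transcription factor that switches on inflammatory genes and its own inhibitor, and sterol-sensing proteins of the endoplasmic reticulum set the output of cholesterol synthesis.

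Coding sequence is shown first, because most coding genes that fell (150 of 194) were in the 20% of coding genes richest in lysine and glutamate codons; 154 of the 194 were in the 20% with the most A in the coding region. Printed for each gene is the stretch of 24 codons with the most such codons, 5′ to 3′ on the coding strand, from the longest basic GENCODE 29 transcript on GRCh38, and capitals mark AAA, AAG, GAA and GAG codons. CENPE, ANKRD12, GOLGA4 and EIF5B fell at 3 h. ELF3, INSIG1 and ICAM1 rose.
CENPE (chr4:103174754-103174825, minus strand, exon 16, codons 520 to 543 of 2701): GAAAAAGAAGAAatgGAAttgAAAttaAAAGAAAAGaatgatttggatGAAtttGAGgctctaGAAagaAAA
ANKRD12 (chr18:9255218-9255289, plus strand, exon 9, codons 651 to 674 of 2062): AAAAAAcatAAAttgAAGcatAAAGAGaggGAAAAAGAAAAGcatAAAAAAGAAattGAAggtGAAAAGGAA
GOLGA4 (chr3:37324710-37324781, plus strand, exon 14, codons 942 to 965 of 2230): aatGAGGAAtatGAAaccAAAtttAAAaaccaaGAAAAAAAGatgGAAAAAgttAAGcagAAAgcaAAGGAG
EIF5B (chr2:99376385-99376456, plus strand, exon 10, codons 531 to 554 of 1220): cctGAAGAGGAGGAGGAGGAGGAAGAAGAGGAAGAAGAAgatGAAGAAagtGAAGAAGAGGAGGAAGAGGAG
ELF3 (chr1:202013223-202013294, plus strand, exon 6, codons 244 to 267 of 371): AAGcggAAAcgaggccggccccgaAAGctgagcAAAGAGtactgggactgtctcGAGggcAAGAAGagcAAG
INSIG1 (chr7:155298694-155301633, plus strand, exons 2 and 3, codons 137 to 160 of 277): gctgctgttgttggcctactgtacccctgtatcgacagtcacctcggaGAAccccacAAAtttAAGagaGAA
ICAM1 (chr19:10283582-10283653, plus strand, exon 3, codons 145 to 168 of 532): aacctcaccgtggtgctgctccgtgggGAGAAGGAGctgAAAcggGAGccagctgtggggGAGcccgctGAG
Lysine and glutamate took 13 of the 24 codons in CENPE, 17 in ANKRD12, 14 in GOLGA4 and 21 in EIF5B. They took 9 in ELF3, 4 in INSIG1 and 7 in ICAM1. The median count in the densest 24 codons was 13 over 194 coding genes that fell, 8 over 19 that rose and 8 over all 12696 coding genes tested. These counts are a description of the sequences. They were not matched for coding length, and a longer coding region offers more stretches to choose from. The median coding length was 2688 nt for genes that fell, 897 for those that rose and 1392 for all tested.

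Depth at 3 h was 33232841 and 34115000 counted reads in the DMSO libraries and 31017197 and 35065628 in the PA libraries, within the range of the series of 26403984 to 35213154. The limit that a count of 0 sets (3 reads) lies between 0.0852 and 0.114 CPM, for counting error only. Levels below are CPM, counts scaled to library size with TMM factors, and log2 changes are PA minus DMSO ± SE with n = 2 libraries per group. The spread behind each SE and p-value was estimated over all 14 libraries of the series. A gene is called to have risen or fallen at an adjusted p under 0.05 in edgeR's quasi-likelihood test. The 7 ductal markers were all measured, at a summed level of 5440 to 6380 CPM in the DMSO and 7100 to 8570 in the PA libraries of 3 h (mostly KRT8 and KRT18), with none called. Over these 4 libraries KRT7 was at 8.71 to 10.3 CPM, EPCAM at 5.13 to 6.39 and MUC1 at 17.3 to 23.9. Markers of other cells were summed too: fibroblast markers at 24.5 to 28.3 CPM in DMSO and 27 to 30.2 in PA (mostly COL1A1), leukocyte markers at 41.6 to 46.9 and 52 to 58.2 (mostly CD68), endothelial markers at 1.11 to 1.26 and 1.2 to 1.29 (mostly KDR; TEK at 0), and acinar and islet markers at 0 to 0.0293 (INS and GCG at 0). Of these markers only 2 of 8 fibroblast, 3 of 7 leukocyte, 1 of 6 endothelial and 0 of 8 acinar and islet markers passed the filter and were tested. None of the tested ones was called, and the part of other cells in the results was not tested. CDKN2A had 0 to 3 reads in every library of the series and was not tested. In bulk RNA, fewer cells of a type and less RNA per cell cannot be told apart.

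Of 15181 genes tested, 261 were called (1.72%), of which 240 fell (1.58%) and 21 rose (0.138%). The median log2 change was -1.54 among the genes that fell, 0.849 among those that rose and -0.0055 over all genes tested. In every one of the 240 both PA libraries were below the 4 DMSO libraries of 0 h and 3 h, and in every one of the 21 above them; over all genes tested such separation was seen for 21.8% below and 20.2% above. A 4-fold fall or more was seen for 51 genes. The 28 gene lists held 65 of the genes that fell (27.1%) and 8 of those that rose (38.1%), against 3.52% of all genes tested. The lists were chosen with earlier results of these data known, so nothing is read from this difference. The number of calls depended on every library: without DMSO replicate 1 the total was 72, without DMSO replicate 2 it was 104, without PA replicate 1 it was 29 and without PA replicate 2 it was 178. Calls of 27 genes that fell, and of no gene that rose, were kept whichever single library was left out, and 58 falls and 14 rises were lost in all 4 cases. The 27 were CENPE, CEP290, AKAP9, LRRCC1, ANKRD12, ANKRD26, GOLGA4, GOLGB1, GOLGA8A, GCC2, TRIP11, CCDC88A, EEA1, UACA, RAD50, SYCP2, MNS1, TPR, BOD1L1, HMGN5, RBBP6, PPIG, SREK1, UPF3B, EIF5B, NEAT1 and JPX. Any other called gene below lost its call in at least 1 omission.

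**Figure D1:**
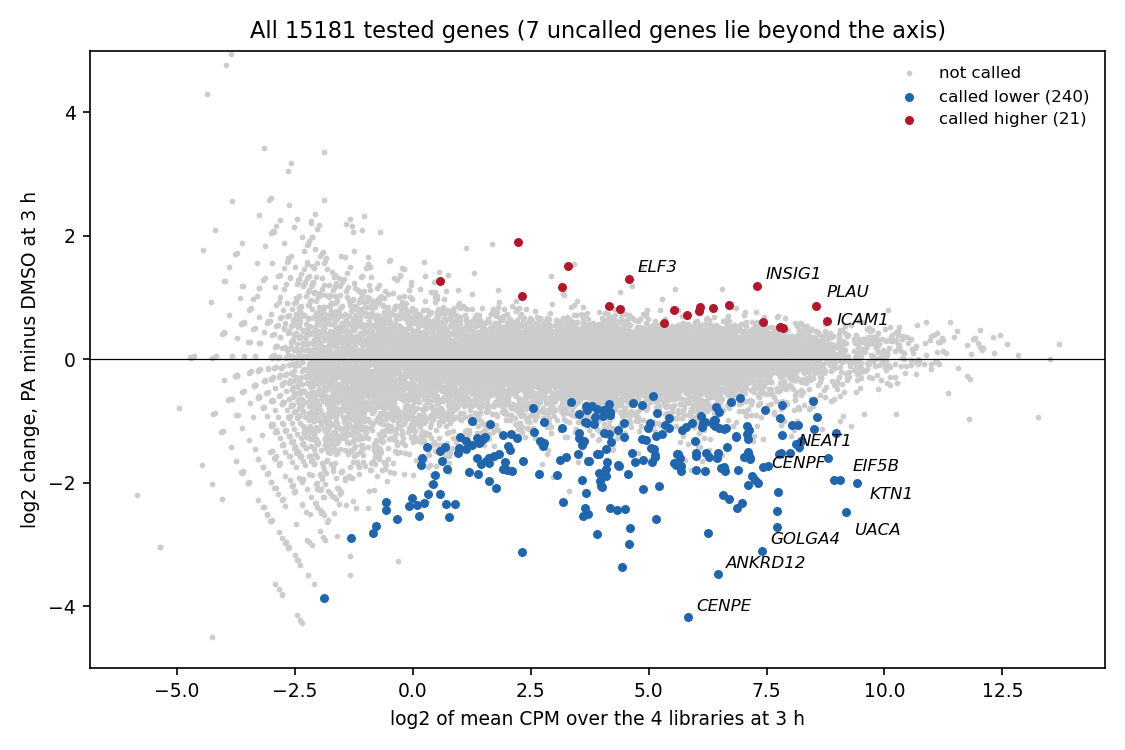
Log2 change (PA minus DMSO at 3 h) of 15181 genes against the log2 of their mean CPM over the 4 libraries, with 240 genes called lower in blue, 21 called higher in red, and 7 uncalled genes beyond the axis left out of view. The falls reach further from 0 than the rises and are spread over the range of levels.

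Genes of the kinetochore and mitotic spindle held the largest fall among the named genes. Of 35 kinetochore and spindle genes tested, 9 fell, none rose and 26 were not called, with a median log2 change of -0.75. Over all genes tested 1.58% fell and 0.138% rose, the shares to set beside this list and every list below. In the fits with trends on GC content and length removed, 1 gene of this list was called higher. CENPE, the motor that carries chromosomes to the spindle equator, stood at 122 and 122 CPM at 0 h, 94.7 and 121 in DMSO at 3 h, and 4.23 and 7.57 in PA. Both PA libraries were below all 4 DMSO libraries, and the log2 change was -4.18 ± 0.372 (edgeR adjusted p = 0.000172). CENPF, a large protein of the outer kinetochore, went from 688 and 855 CPM to 151 and 245, a change of -1.96 ± 0.312 (edgeR adjusted p = 0.00513). SGOL2, which shields centromeric cohesin, went from 145 and 201 CPM to 24.9 and 47.0, and the kinesin KIF18A, which shortens spindle microtubules, from 32.0 and 42.5 CPM to 7.05 and 13.5. In these 4 genes PA replicate 1 was the lowest library.

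Other well-known spindle genes were not called; uncalled genes given for contrast, here and below, and called members beyond the 4 of smallest p in a list were chosen after their values were seen. PLK1, the mitotic kinase, stood at 130 and 149 CPM in DMSO and 198 and 153 in PA (0.33 ± 0.17), CCNB1, the mitotic cyclin, at 457 and 488 against 586 and 556 (0.27 ± 0.112), and TPX2, a spindle assembly factor, at 1080 and 1200 against 1284 and 1211 (0.13 ± 0.111). Their edgeR adjusted p were 0.331, 0.247 and 0.557. The cleavage kinesin KIF20A (0.13 ± 0.122) was not called, while its relative KIF20B fell by 2.81 ± 0.433 (edgeR adjusted p = 0.00431). ASPM, which keeps spindle poles in place, fell from 135 and 179 CPM to 22.9 and 45.6, the hyaluronan-binding spindle protein HMMR from 223 and 264 CPM to 45.8 and 79.8, and the midbody kinesin KIF14 from 68.8 and 78.4 CPM to 20.5 and 30.1. KIF15, a spindle kinesin, fell by 1.73 ± 0.379 (edgeR adjusted p = 0.0344). MKI67, the proliferation marker, was at 1313 and 1487 CPM in DMSO and 1057 and 1099 in PA and was not called (-0.38 ± 0.154, edgeR adjusted p = 0.247; 0.23 once the trends on GC content, A content and length were removed). In the 9 genes that fell the median share of lysine and glutamate codons was 22.9%, against 18.7% in the other 26, and the median coding length 4940 against 2460 nt. The number that fell ranged from 1 to 6 when 1 library was left out. Calls ended without PA replicate 1 for KIF20B (adjusted p = 0.149), CENPF (0.195), SGOL2 (0.365), KIF18A (0.546) and KIF15 (0.547). They also ended without DMSO replicate 2 for CENPF (0.0534), SGOL2 (0.113), KIF18A (0.181) and KIF15 (0.155), without DMSO replicate 1 for SGOL2 (0.0515), KIF18A (0.11) and KIF15 (0.149), and without PA replicate 2 for KIF15 (0.0661). All are edgeR values.

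**Figure D2:**
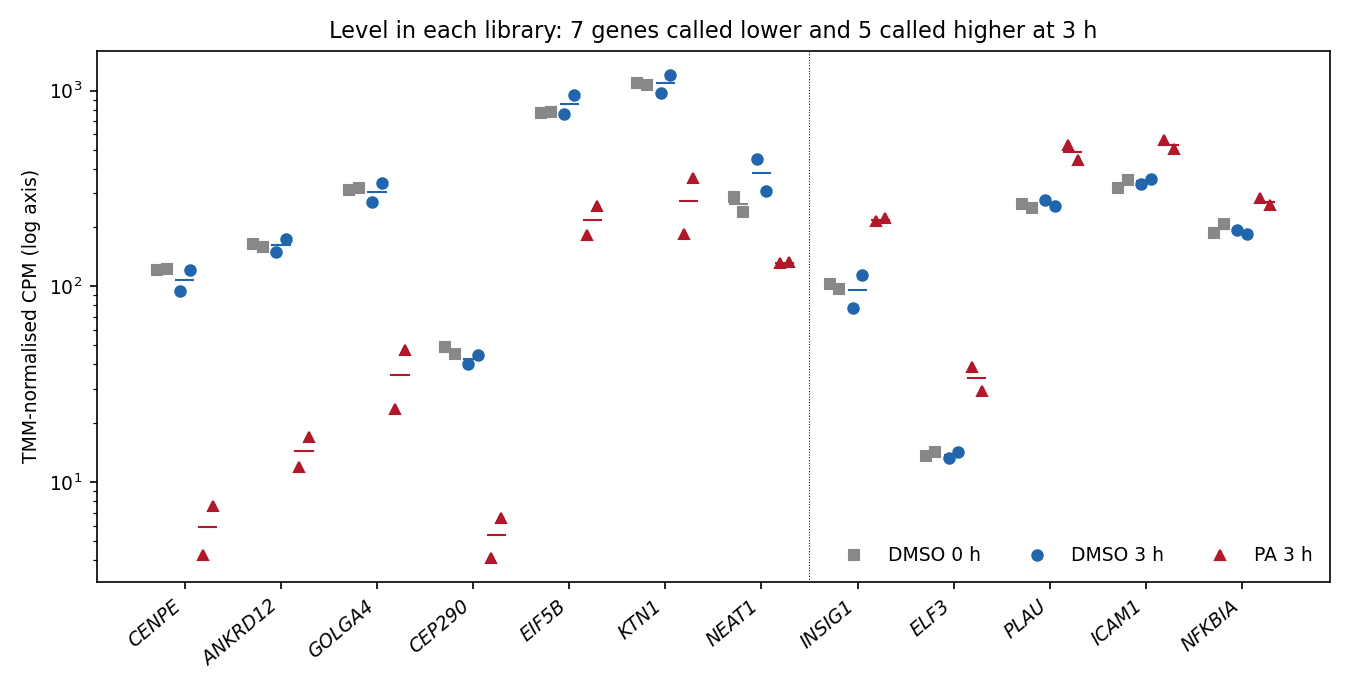
CPM on a log axis of 7 genes that fell (left) and 5 that rose (right) in each library of DMSO at 0 h, DMSO at 3 h and PA at 3 h, with bars at the group means. For every gene shown, both PA libraries lie beyond all 4 DMSO libraries, from CENPE at 4.23 and 7.57 CPM in PA to ICAM1 at 557 and 502.

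Centrosome and basal body genes fell in 13 of 34 cases, with no rise and a median log2 change of -0.99. AKAP9, a kinase anchor of centrosomes and Golgi, was at 35.3 and 43.5 CPM in DMSO and 2.53 and 5.05 in PA. CEP290, the ciliary gate protein, was at 48.9 and 44.9 CPM at 0 h, 40.4 and 44.8 in DMSO at 3 h and 4.11 and 6.60 in PA. For both genes the higher PA library was below the lowest DMSO library. CEP162, which primes the ciliary transition zone, fell from 15.1 and 15.3 CPM to 2.08 and 3.99 (-2.31 ± 0.366, edgeR adjusted p = 0.00495), and PIBF1 from 24.2 and 26.8 CPM to 4.64 and 7.57. CNTRL, which marks the mother centriole, fell by 1.66 ± 0.248, and the centriole duplication scaffold CEP152 by 1.52 ± 0.248. IFT74 (-1.65 ± 0.316) and IFT81 (-1.33 ± 0.303), which bind each other in the train that carries tubulin into cilia, both fell, as did PCM1 of the centriolar satellites (-1.32 ± 0.303). PCNT, the pericentrin scaffold, at 133 and 126 CPM in DMSO and 106 and 114 in PA, and CEP164, at 98.7 and 90.2 against 105 and 104, were not called (edgeR adjusted p = 0.327 and 0.635). Leaving out PA replicate 1 ended the calls of CCDC18 (edgeR adjusted p = 0.1), CEP162 (0.175), CNTRL (0.15) and CEP152 (0.217), and 2 to 11 genes of the list were called lower over the 4 omissions.

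Golgins showed large falls in a few members. Of 18 golgins and Golgi tethers tested, 4 fell and none rose, and the median log2 change was -0.24. GOLGA4 (GRCh38 chromosome 3, 37243177 to 37366751, plus strand), a golgin of the trans-Golgi that captures vesicles, stood at 312 and 317 CPM at 0 h, 269 and 337 in DMSO at 3 h, and 23.5 and 47.1 in PA. GOLGB1, the giant golgin, went from 194 and 224 CPM to 29.4 and 54.2 (-2.32 ± 0.275, edgeR adjusted p = 0.000689). TRIP11, which links the cis-Golgi to microtubules, fell by 2.60 ± 0.3 (edgeR adjusted p = 0.000623), and the trans-Golgi tether GCC2 by 2.43 ± 0.257 (edgeR adjusted p = 0.000355). GOLGA2, the cis-Golgi matrix protein, was at 186 and 166 CPM in DMSO and 198 and 197 in PA, and was not called (0.17 ± 0.148, edgeR adjusted p = 0.574). All 4 golgins that fell kept their calls whichever library was left out. Their median share of lysine and glutamate codons was 26.5%, against 16.4% in the other 14.

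Scaffolds of the cytoskeleton and of endosomes followed, with 8 falls among 30 genes of a list of motors and scaffolds and a median log2 change of -0.30. CCDC88A (girdin), an actin-binding scaffold, went from 185 and 210 CPM in DMSO to 26.4 and 47.6 in PA (-2.42 ± 0.297, edgeR adjusted p = 0.000933). EEA1, the tether of early endosomes, went from 29.9 and 31.1 CPM to 3.92 and 7.51 (-2.41 ± 0.31, edgeR adjusted p = 0.00121). KTN1, the kinesin-binding protein kinectin and one of the most abundant RNAs that fell, stood at 978 and 1203 CPM in DMSO and 185 and 360 in PA. In each of the 3 the higher PA library was below the lower DMSO library. Also lower were the plakin DST (-1.54 ± 0.328), the microtubule tip protein CLIP1 (-1.26 ± 0.206) and the kinesin KIF21A (-1.24 ± 0.24). Non-muscle myosin MYH9, at 1823 and 1758 CPM in DMSO and 2382 and 2055 in PA, and talin TLN1, at 359 and 425 against 592 and 464, were not called (edgeR adjusted p = 0.363 and 0.252). UACA, a coiled-coil protein of dying and stressed cells outside these lists, fell from 925 and 1043 CPM to 118 and 235 (-2.48 ± 0.325, edgeR adjusted p = 0.00145). Calls ended without PA replicate 1 for KTN1 (adjusted p = 0.118), CLIP1 (0.217) and KIF21A (0.422), without DMSO replicate 2 for CLIP1 (0.0667) and KIF21A (0.134), and without DMSO replicate 1 for KIF21A (0.0708), all in edgeR.

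Chromosome structure and repair genes fell in smaller numbers. Of 22 cohesin, condensin and SMC genes, 4 fell and none rose (median -0.62). RAD50, the coiled-coil ATPase that tethers DNA ends, stood at 371 and 360 CPM at 0 h, 325 and 386 in DMSO at 3 h, and 44.2 and 85.3 in PA. Its log2 change was -2.46 ± 0.305 (edgeR adjusted p = 0.000992), and it kept its call without any 1 library. SMC6 (-1.81 ± 0.367), SMC3 (-1.74 ± 0.351), the ring subunit of cohesin, and ESCO1 (-1.78 ± 0.347), which acetylates SMC3, also fell, with edgeR adjusted p between 0.0199 and 0.0253. Among 27 DNA damage kinases and repair genes, the helicase ATRX (204 and 256 CPM to 46.8 and 76.8, -1.90 ± 0.321) and the kinase ATM (52.5 and 65.4 CPM to 23.5 and 30.8, -1.12 ± 0.237) fell, and the median was -0.58. BRCA2 went from 13.7 and 18.8 CPM to 2.56 and 4.82 and missed the threshold (-2.13 ± 0.523, edgeR adjusted p = 0.0614). Calls of SMC6, SMC3 and ESCO1 held only without PA replicate 2; without DMSO replicate 1, DMSO replicate 2 and PA replicate 1 their edgeR adjusted p ran from 0.0515 to 0.488. ATRX lost its call without DMSO replicate 2 (0.0761) and PA replicate 1 (0.243), and ATM in all 4 cases (0.0595 to 0.521).

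A list of chromatin genes gave 7 falls among 32 tested, with no rise and a median log2 change of -0.54. It was drawn up for chromatin remodellers and histone methyltransferases. TPR and BOD1L1, placed in it, are neither, and its members were chosen with earlier results of these data known. With trends on GC content, A content and length removed, 1 member was called higher. TPR, a filament of the nuclear pore basket, stood at 346 and 320 CPM at 0 h, 329 and 374 in DMSO at 3 h, and 55.0 and 102 in PA (-2.16 ± 0.254, edgeR adjusted p = 0.000689). BOD1L1, which protects stalled replication forks, went from 139 and 158 CPM to 37.1 and 51.4 (-1.74 ± 0.218, edgeR adjusted p = 0.00101). In both genes all DMSO libraries were above both PA libraries, and both calls were kept whichever library was left out. ARID4A (-1.66 ± 0.238) and ARID4B (-1.52 ± 0.289), paired subunits of a histone deacetylase complex, fell together, as did BAZ1A, BAZ2B and BPTF. Without PA replicate 1, ARID4A (edgeR adjusted p = 0.111) and ARID4B (0.42) were no longer called, nor was ARID4B without DMSO replicate 1 (0.0847) or DMSO replicate 2 (0.115). HMGN5, a nucleosome-binding protein outside the list with 44.0% of its codons for lysine or glutamate, fell from 19.7 and 21.7 CPM to 2.65 and 4.41 (-2.54 ± 0.232, edgeR adjusted p = 0.000172).

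RNA processing factors of the nuclear speckles fell in 12 of 33 cases, with no rise and a median of -0.40. With only the trends on GC content and length removed, 1 was called higher. PPIG, a cyclophilin that binds RNA polymerase II, went from 321 and 410 CPM in DMSO to 39.8 and 70.8 in PA (-2.72 ± 0.261, edgeR adjusted p = 0.000193). SREK1, a splicing regulator with SR repeats, went from 178 and 190 CPM to 41.6 and 64.6 (-1.79 ± 0.209, edgeR adjusted p = 0.000639). Both kept their calls without any 1 library. PNISR (-1.74 ± 0.222) and NKTR (-1.72 ± 0.217), another cyclophilin, fell as well, and LUC7L3, an abundant factor of 5′ splice sites, fell from 608 and 733 CPM to 171 and 272 (-1.60 ± 0.24). The splicing proteins RBM25 (-1.07 ± 0.168) and DDX46 (-0.94 ± 0.219), a helicase of the branch site, fell by less. SON stood at 532 and 629 CPM in DMSO and 591 and 558 in PA (-0.01 ± 0.117), and SRRM2 at 565 and 670 against 649 and 550 (-0.04 ± 0.146); these speckle scaffolds were not called (edgeR adjusted p = 0.963 and 0.9). In the 12 genes that fell 21.0% of codons, at the median, coded for lysine or glutamate, against 13.8% in the other 21. Without PA replicate 1 the calls of PNISR and NKTR (both edgeR adjusted p = 0.0656), LUC7L3 (0.125), RBM25 (0.141) and DDX46 (0.644) ended, and RBM25 also lost its call without DMSO replicate 2 (0.0636). DDX46 was lost in all 4 cases (0.0507 to 0.644) and with size factors from DESeq2 (0.0715).

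The abundant genes EIF5B, NOP58 and SSB, picked by the naming rule, are described singly. EIF5B, the translation factor that joins ribosomal subunits, was the only one of 13 translation factors called; the median of that list was 0.01 and turned negative (-0.02) when PA replicate 2 was left out or a filter of 5 CPM was used. It stood at 772 and 774 CPM at 0 h, 756 and 945 in DMSO at 3 h, and 182 and 257 in PA (-1.95 ± 0.195, edgeR adjusted p = 0.000235). NOP58, a core protein of nucleolar ribonucleoproteins, fell from 628 and 765 CPM to 236 and 370 (-1.20 ± 0.265, edgeR adjusted p = 0.0348), and SSB (La), which binds new RNA polymerase III transcripts, from 483 and 517 CPM to 170 and 284 (-1.14 ± 0.248, edgeR adjusted p = 0.034). EIF5B was called without any 1 library. NOP58 and SSB were called only without PA replicate 2 among the 4 omissions (edgeR adjusted p = 0.118 to 0.547 and 0.15 to 0.547 in the others), and size factors from DESeq2 ended both calls (0.0525 and 0.0502).

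Noncoding RNAs fell as well. Of 11 nuclear long noncoding RNAs tested, 3 fell and none rose, with a median of -0.47. In the fit with a replicate block and trends on GC content and length removed, 1 was called higher. NEAT1 (GRCh38 chromosome 11, 65422774 to 65445540, plus strand), the scaffold RNA of paraspeckles, stood at 288 and 241 CPM at 0 h, 449 and 306 in DMSO at 3 h, and 132 and 133 in PA. The PA libraries were below DMSO at either time, the log2 change against DMSO at 3 h was -1.51 ± 0.17 (edgeR adjusted p = 0.000524), and the call was kept without any 1 library. MEG3, an imprinted RNA, fell from 30.0 and 22.6 CPM to 10.2 and 10.4 (-1.35 ± 0.246), and SNHG1, a host of small nucleolar RNAs, from 17.3 and 20.7 CPM to 11.1 and 10.8 (-0.80 ± 0.159). The more abundant of the entries under the symbol MALAT1, a speckle RNA, was at 14020 and 11790 CPM in DMSO and 6155 and 7357 in PA and was not called (-0.93 ± 0.277, edgeR adjusted p = 0.122). JPX, a noncoding RNA of the X chromosome, fell from 22.2 and 23.5 CPM to 6.51 and 9.23. MEG3 was called only without DMSO replicate 2 (edgeR adjusted p = 0.0757 to 0.256 in the other omissions), and SNHG1 in none (0.0515 to 0.238).

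Gene families named by symbol gave the same direction of calls. Zinc finger ZNF genes, mostly repressors of the KRAB type, fell in 19 of 406 cases (median -0.32) and centrosomal CEP genes in 7 of 32 (-0.81). Genes named for a coiled coil (CCDC) fell in 9 of 107 (-0.18; 0.02 in the test of RPKM of at least 1), ankyrin repeat genes (ANKRD) in 7 of 38 (-0.28), and kinesins in 5 of 33 (-0.12). No member of these families rose, nor did any of 224 solute carriers or 64 RAB GTPases pass either way. ANKRD12, a nuclear corepressor partner, went from 149 and 175 CPM to 12.0 and 17.0, and ANKRD26 from 25.01 and 27.35 CPM to 2.56 and 4.77; both calls survived every omission. Called lower were also 3 of 122 LINC RNAs, 2 of 41 TRIM genes, 2 of 33 RBM genes and 1 of 48 USP genes, beside 1.58% of all genes tested; nothing is read from counts this small. LRRCC1, a centriole protein (18.6 and 25.7 to 2.69 and 5.07 CPM), and SYCP2, of the meiotic chromosome axis (29.6 and 38.5 to 4.77 and 7.68 CPM), were among the 16 largest falls and kept their calls in every omission. ZNF480 fell from 10.3 and 9.80 CPM to 2.05 and 3.46 (-1.86 ± 0.263, edgeR adjusted p = 0.00245), and ZNF107 from 7.06 and 6.37 CPM to 1.64 and 2.16 (-1.81 ± 0.271, edgeR adjusted p = 0.00362). Without PA replicate 1 neither was called (0.0962 and 0.125), nor were LINC00504 (0.165), TRIM73 (0.103) and RBM41 (0.125). LINC00342 and LINC00894 were called only without DMSO replicate 2 (edgeR adjusted p = 0.0595 to 0.195 and 0.179 to 0.308 in the other omissions), and TRIM59 only without PA replicate 2 (0.0749 to 0.391 in the others). USP8 (0.0514 to 0.578) and ANKRD18A (0.0578 to 0.217) were called in none. Many ZNF genes, GOLGA8A, TRIM73 and ANKRD18A have near-identical relatives, so their reads may be split in ways that the sources used here do not give.

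Targets of TGF-beta and YAP held 2 falls among 15 genes, with a median of -0.04 that came to 0.0024 without DMSO replicate 1. ANKRD1, a muscle and injury-response ankyrin protein and a standard YAP target, went from 34.6 and 25.6 CPM to 14.7 and 14.6 (-1.04 ± 0.206, edgeR adjusted p = 0.0226). AMOTL2, a junction protein that binds YAP, went from 24.8 and 21.9 CPM to 13.2 and 12.4 (-0.86 ± 0.169, edgeR adjusted p = 0.0206). The PA libraries were below all DMSO libraries in both. Calls were lost for AMOTL2 in all 4 omissions (0.0652 to 0.217) and for ANKRD1 in all but that of DMSO replicate 2 (edgeR adjusted p = 0.111 to 0.316), and ANKRD1 also once trends on GC content, A content and length were removed (-0.67, 0.0677).

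**Figure D3:**
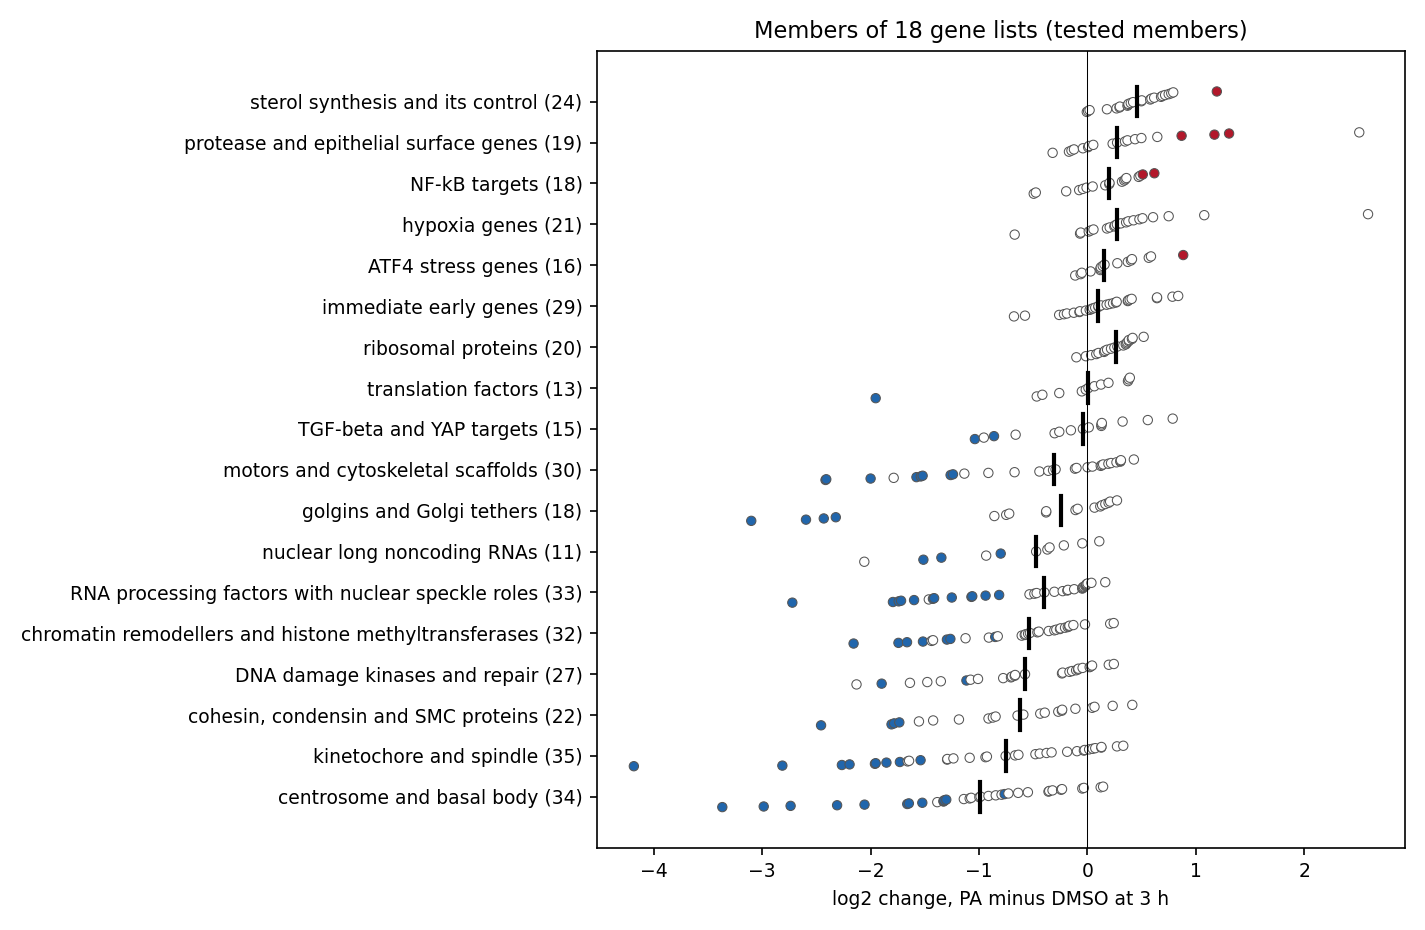
Log2 changes at 3 h of the tested members of 18 gene lists, with filled blue points called lower, filled red points called higher, open points not called and a black bar at each list's median. Among the lists plotted, 13 of 34 centrosome and 12 of 33 RNA processing genes fell and 3 of 19 protease and epithelial genes rose; the medians of the translation factors and immediate early genes, close to 0, change sign with the setting.

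Sterol synthesis had the largest positive median of the 28 lists, 0.46 over 24 genes tested, with 23 of 24 values above 0 and 16 with an unadjusted p under 0.05, but only INSIG1 was called. INSIG1, which keeps sterol regulatory proteins in the endoplasmic reticulum, stood at 103 and 97.0 CPM at 0 h, 77.6 and 114 in DMSO at 3 h, and 216 and 222 in PA. Both PA libraries were above all 4 DMSO libraries, by 1.19 ± 0.179 against DMSO at 3 h (edgeR adjusted p = 0.00363). The synthesis enzymes just missed the threshold: DHCR7, which makes cholesterol from its last precursor, was at 89.8 and 105 CPM against 175 and 158 (0.77 ± 0.185, edgeR adjusted p = 0.0532). MVD was at 36.3 and 36.3 CPM against 62.3 and 63.4 (0.79 ± 0.201, edgeR adjusted p = 0.0697). Of 13 fatty acid genes none was called (median 0.27; 5 at an unadjusted p under 0.05; 4 called in DESeq2, with the 4 libraries alone and without a filter, and 4 to 5 once sequence trends were removed). SCD, the stearoyl-CoA desaturase, was at 667 and 906 CPM in DMSO and 1413 and 1329 in PA (0.80 ± 0.196, edgeR adjusted p = 0.0607). The call of INSIG1 ended without DMSO replicate 1 (0.0515) and without PA replicate 1 (0.0547).

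NF-kB targets rose in 2 of 18 cases, with a median of 0.20. NFKBIA, the inhibitor that holds NF-kB in the cytoplasm, was at 187 and 208 CPM at 0 h, 194 and 186 in DMSO at 3 h, and 282 and 259 in PA (0.51 ± 0.12, edgeR adjusted p = 0.0477). ICAM1, a cell adhesion ligand for leukocytes, was at 318 and 349 CPM at 0 h, 335 and 355 in DMSO at 3 h, and 557 and 502 in PA (0.62 ± 0.135, edgeR adjusted p = 0.0343). The PA libraries were above the 4 DMSO libraries in both genes. CXCL8, the chemokine interleukin 8, was at 33.0 and 36.2 CPM in DMSO and 34.0 and 33.2 in PA and was not called (-0.04 ± 0.248, edgeR adjusted p = 0.946; 0.55 to 0.56 with sequence trends removed). Both calls were lost in all 4 omissions, with edgeR adjusted p from 0.108 to 0.5 for NFKBIA and 0.0762 to 0.418 for ICAM1.

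Promoters of the genes that rose were searched, since NF-kB binds a known type of site. The kB-type motif, GGG then any 2 bases then TTTCC, was looked for on both strands in windows from 250 bases before to 50 after the start site (RefSeq, GRCh38.p14), and 17 of the 21 genes that rose and 182 of the 240 that fell had a window. It was present in 2 of 17 (11.8%), in 5 of 182 (2.75%) and in 1.92% of all 27305 promoters. The 150 bases before the start site of the 2 genes are printed 5′ to 3′ on the gene's strand, with the match in capitals; in both it reads as the reverse complement of the motif.
NFKBIA (chr14:35404750-35404899, minus strand): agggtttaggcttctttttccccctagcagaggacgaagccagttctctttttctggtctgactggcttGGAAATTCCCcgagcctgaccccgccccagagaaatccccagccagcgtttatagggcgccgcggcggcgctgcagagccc
ELF3 (chr1:202010437-202010586, plus strand): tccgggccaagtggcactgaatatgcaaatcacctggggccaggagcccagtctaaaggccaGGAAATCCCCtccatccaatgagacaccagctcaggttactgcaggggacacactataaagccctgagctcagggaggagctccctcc
The sterol element core TCACNCCAC was in none of the 17, in 1 of 19 sterol genes with a window (SREBF2), in 2 of 182 genes that fell and in 1.15% of all promoters. A match is a description of these letters only.

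Proteases and epithelial surface genes gave 3 rises among 19 tested and no fall (median 0.27). ELF3, an epithelial transcription factor, stood at 13.6 and 14.2 CPM at 0 h, 13.2 and 14.3 in DMSO at 3 h, and 38.9 and 29.4 in PA (1.31 ± 0.266, edgeR adjusted p = 0.0253). PLAU, the urokinase that activates plasminogen, stood at 262 and 251, 275 and 256, and 530 and 440 CPM (0.87 ± 0.163, edgeR adjusted p = 0.0163). EFNA1, a membrane ligand of Eph receptors, went from 5.75 and 5.24 CPM to 13.05 and 11.73 (1.17 ± 0.226, edgeR adjusted p = 0.0192). In each of the 3 both PA libraries were above all DMSO libraries of 0 h and 3 h. MMP9, a secreted collagenase, was near the floor at 0.0581 and 0.0283 CPM in DMSO and 0.19 and 0.333 in PA and was not called (edgeR adjusted p = 0.205). ELF3 and PLAU were called only without PA replicate 2 (edgeR adjusted p = 0.136 to 0.379 and 0.104 to 0.256 in the other omissions), and EFNA1 in none (0.0507 to 0.233).

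Stress and growth-arrest genes rose singly. CDKN1A, the cyclin-dependent kinase inhibitor p21, was at 49.6 and 56.4 CPM at 0 h, 50.8 and 47.0 in DMSO at 3 h, and 89.0 and 79.9 in PA (0.79 ± 0.173, edgeR adjusted p = 0.0344), the only call among 18 p53 targets (median 0.15). DDIT4, an inhibitor of mTORC1, was at 54.5 and 66.8, 81.6 and 64.5, and 127 and 142 CPM (0.88 ± 0.171, edgeR adjusted p = 0.0192), the only call among 16 ATF4 stress genes (median 0.15). The libraries of PA were the highest in both. HMOX1, haem oxygenase, was at 15.3 and 12.5 CPM in DMSO and 25.2 and 23.5 in PA without a call (0.81 ± 0.242, edgeR adjusted p = 0.127), and none of 17 NRF2 targets passed (median 0.20; 5 at an unadjusted p under 0.05). Calls of CDKN1A (0.0815 to 0.411) and DDIT4 (0.0515 to 0.163) ended in all 4 omissions, in edgeR.

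The other rises came from several functions. NAB2, a corepressor of EGR1, went from 36.6 and 30.6 CPM to 62.0 and 55.4 (0.80 ± 0.166), BHLHE40, a clock repressor, from 145 and 129 CPM to 216 and 199 (0.60 ± 0.139), and GEM, a small GTPase that limits calcium channels, from 39.0 and 45.8 CPM to 78.3 and 61.2 (0.72 ± 0.164). FBXO32, a muscle ubiquitin ligase (32.1 and 31.8 to 50.2 and 45.9 CPM), SDC4, a surface proteoglycan (178 and 182 to 267 and 252), and the glycosyltransferase B3GNT7 (42.1 and 55.7 to 98.5 and 77.8) also rose. So did C15orf48, a small mitochondrial protein (14.5 and 15.8 to 26.1 and 27.1 CPM), the endosomal protein PLEKHF1 (13.01 and 12.37 to 25.9 and 20.4) and TMEM38A, a channel of the endoplasmic reticulum (2.88 and 3.65 to 7.46 and 5.88). FAM159B went from 2.96 and 7.11 CPM to 11.2 and 17.6 (1.52 ± 0.326, edgeR adjusted p = 0.0324), but the deposited RPKM of this gene averaged 0 in DMSO and 0.015 in PA, so its counts and its RPKM disagree. Edge cases were common: the edgeR adjusted p of the 18 named rises lay between 0.00363 and 0.0477. Without PA replicate 2 the calls of GEM (0.0431) and PLEKHF1 (0.037) held, without DMSO replicate 2 that of FAM159B (0.00913), and the calls of these 10 genes were lost in every other omission (0.0546 to 0.547). B3GNT7, BHLHE40 and TMEM38A were not called with a filter of 5 CPM (0.0553, 0.0535 and 0.055).

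Several lists had no called member. Some gained calls in other fits: hypoxia genes gave 5 rises in DESeq2, with the 4 libraries alone and without a filter, and 2 to 4 with sequence trends removed, and in these fits 2 immediate early genes and 1 to 2 NRF2 targets were called higher. Other lists gained falls. With the 4 libraries alone and without a filter, 4 large ubiquitin ligases and proteases, 2 heat shock genes and 1 endoplasmic reticulum chaperone were called lower. In DESeq2, 1 heat shock gene and 1 such chaperone were called lower. With the 4 libraries alone, 1 gene each of iron handling, ribosomal proteins and the mitochondrial genome was called higher. Hypoxia genes had a median of 0.27 over 21 genes, 10 of them with an unadjusted p under 0.05 and all 10 upward; PFKFB3, a glycolytic regulator, was at 27.1 and 26.9 CPM in DMSO and 38.8 and 38.1 in PA (0.51 ± 0.143, edgeR adjusted p = 0.104). Ribosomal protein genes had a median of 0.26 over 20, with RPL7A at 372 and 378 CPM against 535 and 467 (0.42 ± 0.149, edgeR adjusted p = 0.198). For immediate early genes the median was 0.10 over 29, turning to -0.01 once trends on GC content, A content and length were removed, and SRF, the factor that drives several of them, was at 66.6 and 54.3 CPM against 99.1 and 89.7 (0.64 ± 0.166, edgeR adjusted p = 0.0748). HSP90AA1, the inducible cytosolic chaperone, was at 4279 and 5075 CPM in DMSO and 1992 and 2786 in PA without a call (-0.97 ± 0.298, edgeR adjusted p = 0.137), and its relative in the endoplasmic reticulum HSP90B1 at 1451 and 1696 against 720 and 991 (-0.88 ± 0.215, edgeR adjusted p = 0.0594). GAPDH was at 1978 and 1822 CPM against 2772 and 2351 (0.43 ± 0.154, edgeR adjusted p = 0.198). Medians were 0.32 for iron handling, 0.16 for aryl hydrocarbon receptor targets and 0.14 for heat shock genes. They were -0.0043 for endoplasmic reticulum chaperones, which changed sign under several settings, -0.26 for metallothioneins (0.21 without DMSO replicate 1), -0.22 for large ubiquitin ligases and -0.04 for RNAs of the mitochondrial genome (0.03 to 0.05 and 0.14 to 0.19 with sequence trends removed, and the latter 0.0027 without DMSO replicate 2 and 0.0382 without PA replicate 2).

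The sequence features of the genes that fell are given as a description. Their transcripts had a median GC content of 40.01%, against 54.7% for genes that rose and 48.9% for all genes tested, and a median A content of 33.7%, 23.1% and 25.9%. Their coding regions were longer, 2688 nt at the median against 897 and 1392 nt, and lysine and glutamate codons took 20.3% of codons, against 12.2% and 12.7%. With genes split into 5 equal groups (quintiles), 150 of 2539 fell in the quintile richest in these codons (5.91%), against 0.276% to 0.591% in the other quintiles. Within the quintile of lowest GC content, 117 of 845 genes that were also in the richest codon quintile fell (13.8%), against 14 of 1725 other genes (0.812%). Within the quintile of longest coding regions the shares were 89 of 491 (18.1%) and 16 of 2042 (0.784%). Genes were not split in this way within quintiles of A content, so codon share apart from A content was not tested. The Spearman correlation with the change over all genes was -0.496 for A content of transcripts and -0.473 for A in coding regions. It was 0.479 for GC content, -0.163 for coding length and -0.246 for the share of lysine and glutamate codons. CENPE, ANKRD12, GOLGA4 and EIF5B, whose windows are printed above, have 26.5%, 23.7%, 29.3% and 29.9% such codons in the whole coding region, and INSIG1, ICAM1 and ELF3 have 4.33%, 10.7% and 14.3%.

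**Figure D4:**
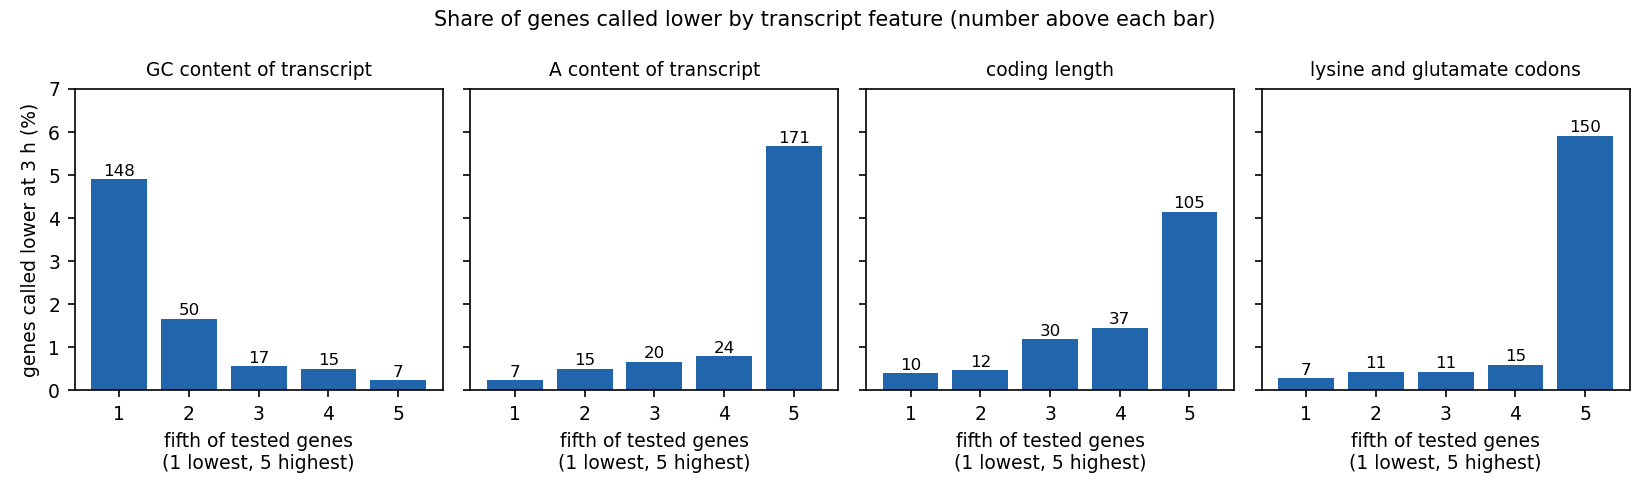
Percent of genes called lower at 3 h in each quintile of transcript GC content, transcript A content, coding length and share of lysine and glutamate codons, with the number of genes called above each bar. The falls gather in the quintile of lowest GC content (4.91%), highest A content (5.67%), longest coding region (4.15%) and most lysine and glutamate codons (5.91%).

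The whole libraries differed along the same features, which is given here beside the gene groups. The slope of log2 level on GC content, per 10 percentage points and relative to each gene's mean, was 0.234 and 0.0986 in the PA libraries, 0.00863 and -0.146 in DMSO at 3 h and -0.155 and -0.0393 at 0 h. On the share of lysine and glutamate codons it was -0.279 and -0.11 in PA, 0.0494 and 0.151 in DMSO at 3 h and 0.0954 and 0.0933 at 0 h. PA replicate 1 was at the end of both scales, and it was below PA replicate 2 in 208 of the 240 genes that fell, against 50.2% of all genes. With each library's trend on GC content, A content and length removed, 263 genes fell and 197 rose, 198 of the 261 calls were kept, and the share of calls that were higher went from 8.05% to 42.8%; that fit was added after the data were seen. CENPE then changed by -2.40, ANKRD12 by -2.27, GOLGA4 by -1.78, EIF5B by -0.88, KTN1 by -0.70 and NEAT1 by -1.34, all still called, while RBM41, SSB, USP8, DDX46, RBM25, ZNF480, ZNF107, LINC00504, ANKRD18A and ANKRD1 were not. INSIG1 changed by 1.19, ELF3 by 1.22 and ICAM1 by 0.50, and the 18 named rises all stayed called. The median of the kinetochore list became -0.22 and that of the centrosome list -0.38, and sterol genes gave 10 rises. The source of these slopes was not tested.

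Later times are shown beside the first, with their own controls, so that the effects at 3, 12 and 24 h share no library. Of the 240 genes that fell at 3 h, 232 (96.7%) were also called lower at 12 h and 230 (95.8%) at 24 h, where 24.1% and 27.5% of all genes tested were called lower. They made up 6.33% of the 3665 falls at 12 h and 5.52% of the 4169 at 24 h. Of the 21 that rose, 15 (71.4%) were called higher at 12 h and 21 (100%) at 24 h, where the background was 24.4% and 27.2%. The median log2 change of the genes that fell was -1.54, -2.27 and -1.94 at the 3 times, and that of the genes that rose 0.849, 0.999 and 1.23. CENPE changed by -4.18, -5.70 and -4.16. By the test of the difference between times, the effect at 12 h differed from that at 3 h for 14 of the 240 and 6 of the 21 (2.79% of all genes tested), and at 24 h for 36 and 5 (14.4% of all genes tested). Of the 36, 28 were further below 0 at 24 h and 8 had moved upward, among them ANKRD1, which ended above 0.

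ANKRD1 and PLAU changed side after 3 h. ANKRD1 was at -1.04 ± 0.206 at 3 h, -1.54 at 12 h and 1.20 at 24 h, the only fall called the other way later. PLAU was at 0.87 ± 0.163 at 3 h, -0.57 at 12 h and 0.45 at 24 h, the only rise called the other way. For these the difference from 3 h passed its own test, at 24 h for ANKRD1 and at 12 h for PLAU (edgeR adjusted p = 0.000873 and 0.00669). SDC4 (-0.09), FBXO32 (0.12), GEM (0.05) and FAM159B (-0.43) were called higher at 3 and 24 h and not at 12 h, but the difference between 3 and 12 h passed only for FAM159B (edgeR adjusted p = 0.0392; 0.0632, 0.148 and 0.116 for SDC4, FBXO32 and GEM). PAQR6, CACNG8, OSR1, UBOX5-AS1 and SOX4 fell at 3 h and were called at neither later time. The difference from 3 h passed for OSR1 at 12 h (edgeR adjusted p = 0.0277) and for CACNG8 and SOX4 at 24 h (0.0329 and 0.0262), and at neither time for PAQR6 and UBOX5-AS1. SOX4, a developmental transcription factor, was at 161 and 137 CPM in DMSO and 95.4 and 98.0 in PA at 3 h (-0.62 ± 0.127, edgeR adjusted p = 0.025), and its log2 change was -0.22 at 12 h and 0.04 at 24 h. OSR1, another developmental factor, was at 1.98 and 1.44 CPM in DMSO and 0.537 and 0.582 in PA (-1.60 ± 0.328, edgeR adjusted p = 0.0258), and at 0.42 and -0.30 later. These 5 genes were named after their values were seen.

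**Figure D5:**
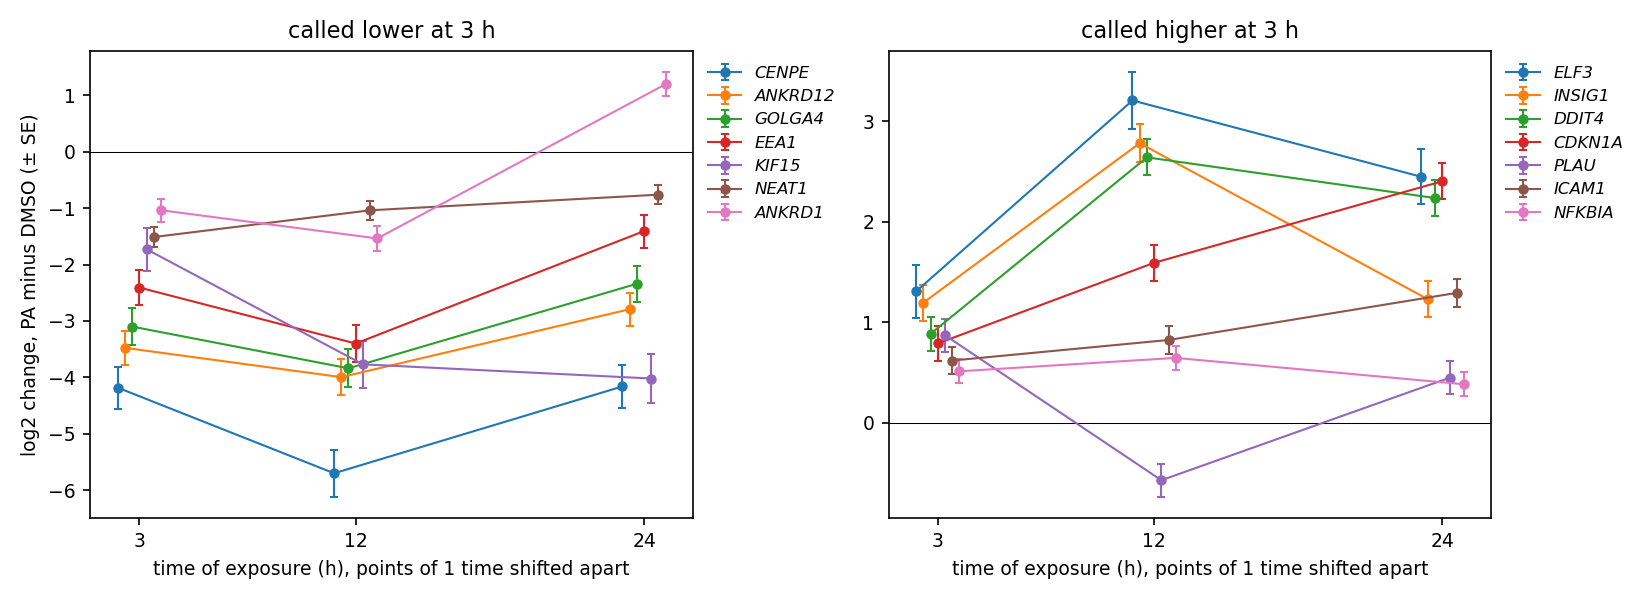
Log2 change of PA against DMSO ± SE at 3, 12 and 24 h for 7 genes that fell at 3 h (left) and 7 that rose (right). ANKRD1 ends above 0 at 24 h (1.20) and PLAU is below 0 at 12 h (-0.57), while the other 12 genes keep the side of 0 that they had at 3 h.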

How the data were processed

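RNA of PANC-1 cells was sequenced in 14 libraries, of which the 4 of PA and DMSO at 3 h are compared here. The deposited counts are whole numbers of reads per gene (28120 genes), with no normalization, and the deposited RPKM values, scaled by the authors to gene length and library total, cover 25447 genes; both are described from the values in the files. The submitters' processing notes name TopHat2, edgeR and GRCh38, without roles. The counting tool, annotation release and strand setting were not given in the sources used here, so reads of overlapping and antisense genes may be misassigned. An extra empty field was skipped in 8163 lines of the count table, and 0 columns were left unused.

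Fits used edgeR 4.0.16 under R 4.3.3, with TMM scaling, the filterByExpr filter on groups, 1 mean per group over all 14 libraries (7 residual degrees of freedom, biological coefficient of variation 15.1%), two-sided quasi-likelihood tests, and Benjamini-Hochberg adjustment over 15181 genes at 0.05. The SE is the log2 change divided by the square root of F. Replicates had a Spearman correlation across genes of 0.992 (DMSO) and 0.994 (PA) at 3 h and differed by more than sampling noise. Intervals and floors cover counting error only, and PCR duplicates are counted.

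The comparison, its gene lists, families and named genes were chosen with earlier results of these data known. Named were the genes called higher (up to 25), the 16 largest falls, the 8 most abundant falls, all averaging 2 CPM or more, with the PA libraries both outside the DMSO range and no clone name, then up to 4 called members of each list (where none was called, the 1 with the smallest p), genes called the opposite way later, and CDKN1A, MKI67, HMOX1, CXCL8, CDKN2A and GAPDH. Of the list members, 590 of 602 were in the count table. Features come from the longest basic transcript in GENCODE 29 (15071 tested genes, 99.3%); coding length and codon shares stand in for protein length and lysine share.

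Alternatives were limma 3.58.1 on log2(RPKM + 1) and log2(RPKM + 0.1), DESeq2 1.42.0 and its size factors, other filters, a minimum change of 1.5-fold, the 4 libraries alone, a replicate block, removal of mitochondrial genes, leaving out each library, and offsets for each library's trend on GC content and length; the offset with A content was added after the data were seen. On simulated counts for 14687 genes, 84% of 2-fold and 100% of 4-fold changes at 3 h were recovered, with 6 unchanged genes called. The simulation used the same spread for every gene and group, no library trend on sequence features, and changed genes averaging 2 CPM or more. The real libraries differ in this, so these rates need not hold for them. Some items are not reported here.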

Additional observations from a re-analysis of the deposited data

Results flagged for a closer look

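For named genes the effect of PA at a later time was tested against that at 3 h (edgeR contrast of the differences, adjusted p under 0.05), and the values here are the later log2 change minus that at 3 h. At 12 h the fall was larger for CENPF (-1.93), ZNF107 (-1.76), SYCP2 (-1.69) and CCDC88A (-1.64), and the rise was larger for ELF3 (1.90), DDIT4 (1.76) and INSIG1 (1.59). FAM159B (-1.94) and PLAU (-1.44) moved down from their rise at 3 h.

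At 24 h the fall was larger for KIF15 (-2.29), TRIM59 (-2.13), KIF18A (-2.11), SGOL2 (-1.94), ZNF107 (-1.76), ANKRD18A (-1.55), CCDC150 (-1.54), CCDC34 (-1.46), CEP152 (-1.22), CNTRL (-1.11) and RBM25 (-0.83). It was smaller for NEAT1 (0.75), and ANKRD1 changed side (2.24). The rise was larger for CDKN1A (1.61), DDIT4 (1.35), C15orf48 (1.14) and ICAM1 (0.67).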

How the results depend on the processing

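Of 261 calls at 3 h, the number came to 1183 with the 4 libraries alone (939 lower, 244 higher), 1115 without a filter (859, 256), 552 in DESeq2 (397, 155), 650 with GC content and length offsets (379, 271), 511 with these and the replicate block (334, 177), 460 with the A content offset as well (263, 197), 129 and 106 on log2(RPKM + 1) and log2(RPKM + 0.1) (109 and 83 lower), and 61 with a minimum change of 1.5-fold (all lower, 0 higher). Rises numbered 11 with the replicate block and 50 at an RPKM of at least 1. Without 1 library the total was 29 to 178, falls 28 to 171 and rises 0 to 9. The share of calls that were higher went from 8.05% to 28.1% in DESeq2, 20.6% with the 4 libraries alone, 23% without a filter, 21.7% on log2(RPKM + 0.1), 41.7% with the GC offset, 34.6% with the block added and 42.8% with A content. The GC offset and the A content offset moved the median of all genes to 0.059 and 0.0455.

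The replicate numbers gave no pairing: among 21 group pairs 2 exceeded a residual correlation of 0.1 (range -0.218 to 0.244; 0.0469 between DMSO and PA at 3 h), and the replicate block gave 221 calls, 217 of them shared. Of 86 called named genes it ended 11 (NFKBIA, ICAM1, CDKN1A, SDC4, FBXO32, BHLHE40, GEM, B3GNT7, TMEM38A, USP8 and DDX46, with adjusted p from 0.0513 to 0.0799), which took both rises from the NF-kB list, the A content offset ended 10, log2(RPKM + 1) 33 and log2(RPKM + 0.1) 41.

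Kinetochore falls (9) became 20 with the 4 libraries alone and 20 without a filter, 3 with the 1.5-fold minimum, and 4 and 1 on the RPKM scales (1 to 6 without 1 library). Centrosome falls (13) became 24, 24, 5, 7 and 3 (2 to 11), and RNA processing falls (12) became 6, 7 and 6 in the last 3 (2 to 11). Sterol rises (1) became 11 with the 4 libraries alone, 4 with DESeq2 size factors, 8 in DESeq2, 11 without a filter, 0 with the 1.5-fold minimum, 5 at an RPKM of at least 1, and 13, 12 and 10 with the offsets (0 to 2 without 1 library). Genes whose effect differed from 3 h numbered 423 at 12 h, and 1157 in DESeq2, 1808 without a filter, 201 and 163 on the RPKM scales and 1063, 930 and 1178 with the offsets (61 to 416 without 1 library); at 24 h 2192 became 705 to 1855 without 1 library. The share of 3 h calls found in the same direction later was 91.3% to 100% at 12 h and 93.3% to 100% at 24 h without 1 library, 82.9% and 81.4% on log2(RPKM + 1), and 71.7% at both times on log2(RPKM + 0.1). The median GC content of the genes that fell (40.01%) was 41.7% with the A content offset and 38.2% to 41.8% without 1 library. Their lysine and glutamate codons (20.3%) came to 17.8% with the 4 libraries alone, 18.1% without a filter, 23.8% with the 1.5-fold minimum, 22.6% on both RPKM scales, 19.2% with the GC offset, 18.7% with A content and 21.8% to 23.8% without 1 library.

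Changes of sign were seen for MKI67 (0.23 with the A content offset) and CXCL8 (0.56 with the GC offset, 0.56 with the block added, 0.55 with A content; -0.107 to 0.026 without 1 library, above 0 without DMSO replicate 2). The causes of these shifts were not tested. Depth limits calls to genes above the expression filter.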

Other observations

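The genes named here fell at 3 h, stood in no list above and were chosen after their values were seen, so they stand for themselves and not for a group. ESF1, a nucleolar protein of rRNA processing, went from 204 and 237 CPM in DMSO to 37.7 and 69.7 in PA (-2.04 ± 0.356, edgeR adjusted p = 0.0106). DNTTIP2 went from 136 and 168 CPM to 30.5 and 56.2, MPHOSPH10 from 212 and 217 CPM to 50.2 and 92.2, and NOL8 from 66.1 and 78.8 CPM to 19.6 and 30.5. In each of the 4 both PA libraries were below both DMSO libraries. The nonsense-mediated decay factors UPF3B, at 292 and 368 CPM against 87.3 and 142 (-1.52 ± 0.209, edgeR adjusted p = 0.002), and UPF2, at 106 and 118 against 44.4 and 63.0 (-1.06 ± 0.226, edgeR adjusted p = 0.0321), fell as well. Both cyclin L genes, whose products act with splicing kinases, fell: CCNL1 from 89.7 and 91.0 CPM to 45.0 and 50.3 and CCNL2 from 108 and 83.9 CPM to 41.3 and 48.4. So did MAT2A, which makes S-adenosylmethionine (441 and 447 to 279 and 277 CPM), and OGT, which adds N-acetylglucosamine to proteins (112 and 106 to 62.1 and 66.3 CPM).

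Further falls chosen in the same way follow. EDN1, the peptide endothelin 1, went from 54.4 and 55.1 CPM to 23.6 and 28.7 (-1.06 ± 0.174, edgeR adjusted p = 0.00605), BMP4, a growth factor, from 28.8 and 34.5 CPM to 16.5 and 22.0 (-0.72 ± 0.167, edgeR adjusted p = 0.0474), and AXIN2, a feedback inhibitor and target of Wnt signalling, from 3.17 and 3.71 CPM to 1.39 and 1.25 (-1.38 ± 0.246, edgeR adjusted p = 0.0122). The laminin chain LAMB1 went from 130 and 136 CPM to 82.8 and 82.4 and the collagen COL27A1 from 8.37 and 6.37 to 4.39 and 4.16. The PA libraries were below the DMSO libraries in these 5 genes. CLSPN, the adaptor of checkpoint kinase 1, fell from 278 and 304 CPM to 130 and 169 (-0.96 ± 0.182, edgeR adjusted p = 0.0178).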
